A study of Mus musculus with 6 samples.

Results

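The measurements below concern 36 mouse genes of MHC class I antigen presentation and the interferon response, taken by symbol from a table of 46959 gene symbols. They were listed by function and not by their level in these libraries, though with earlier results of these data known. They comprise 8 genes of class I presentation, 5 of the immunoproteasome and its activator, 7 interferon receptors, kinases and an inhibitor, 5 transcription factors, 9 interferon-induced effectors and 2 sensors of cytosolic RNA. All 36 reached 1 RPKM (the reads of a gene divided by its length in kilobases and by the M reads of the library) in at least 2 of 6 libraries and were tested, among 13022 genes. The study sequenced polyadenylated RNA of sorted pancreatic islet cells from adult mice and compared beta cells, delta cells and cells called transdifferentiated, which carry a beta-cell reporter and a delta-cell lineage label together. Every animal was triple transgenic, with the mIns1-H2b-mCherry reporter, Sst-cre and a floxed YFP allele. Beta cells were sorted as mCherry-positive, delta cells as YFP-positive and transdifferentiated cells as double-positive. The mCherry reporter is driven by an Ins1 promoter and the Cre by the somatostatin promoter, so the populations are defined by those promoters. Sexes were pooled apart, with islets of 10 to 12 animals in a pool, which gives each population a male-pool and a female-pool library. The islets were cultured overnight before sorting, without any labelled exposure to interferon or infection.

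MHC class I molecules show peptides from inside the cell to cytotoxic T cells. The peptides are cut by the proteasome, carried into the endoplasmic reticulum by the Tap1 and Tap2 transporter and loaded onto a heavy chain paired with beta-2-microglobulin. Type I interferons act through Ifnar1 and Ifnar2, and interferon gamma through Ifngr1 and Ifngr2. Both use Janus kinases to switch on antiviral genes and class I genes, and class I display on beta cells is a known feature of autoimmune diabetes.

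Depth, worked out from the steps between low RPKM values, was 20.5 to 21.6 M reads in the beta, 10.9 to 12.5 M in the transdifferentiated and 15.7 to 17.0 M in the delta libraries. The sorts carried their markers: Hhex, a delta-cell regulator, was at 0.290 and 0.331 RPKM in beta, 68.6 and 56.2 in transdifferentiated and 172 and 175 in delta cells. Mafa, a beta-cell regulator, was at 140 and 236, 20.6 and 81.5, and 1.04 and 1.71 RPKM. Glucagon (Gcg), the alpha-cell hormone, was at 236 and 422 RPKM in beta, 1620 and 2368 in transdifferentiated and 14573 and 15846 in delta cells, and the part of other endocrine cells in the differences below was not tested. Scale matters for every comparison with beta cells. Over all tested genes the median log2 difference was 0.32 in transdifferentiated against beta cells, -0.36 in beta against delta cells and -0.03 in transdifferentiated against delta cells. Scaling by medians of ratios, which sets a typical gene level between libraries, moved these to -0.06, 0.02 and -0.02. Differences below are of log2(RPKM + 1), and limma gave their standard error (SE) and adjusted p. Each group has n = 2 libraries, and the scaled value is given where it ends a call. These are sorted bulk samples, so a smaller share of expressing cells and less RNA per cell cannot be told apart.

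The RNA sensors Ifih1 and Ddx58, the kinase Jak2, the transcription factor Stat2 and the effectors Ifit1 and Ifit2 were higher in transdifferentiated and in delta cells than in beta cells, with and without scaling. Against beta cells, 11 of the 36 genes were higher in transdifferentiated cells and 0 lower, where 42.5% and 8.46% of all tested genes were higher and lower (51.0% in either direction). Scaling turned this into 7 higher and 5 lower, against 25.5% and 29.6% of all genes (55.1% together). Against delta cells, 1 gene was higher in beta cells and 18 were lower, where 11.7% and 46.3% of all tested genes were called (57.9% together). Scaling turned this into 4 higher and 7 lower, against 29.8% and 28.1% of all genes. With the pool as a block, 1 was higher and 19 were lower, where 60.6% of all genes were called in either direction. Transdifferentiated and delta cells differed in 4 members, 1 higher and 3 lower in transdifferentiated cells, where 5.53% and 7.20% of all genes were called (12.7% together). Scaling left 1 higher, Mx1, and 1 lower, Ifnar2, against 5.63% and 6.69% of all genes (12.3% together). With the pool as a block, 8 members in place of 3 were lower there, against 8.28% of all genes. None of these 4 calls held on leaving out each library: H2-K1, Psme1 and Ifnar2 failed without any transdifferentiated or delta library (adjusted p = 0.11 to 0.28), and Mx1 passed only without the female transdifferentiated library (0.055 to 0.20 without any other). The counts lie near or below the share of all genes in each comparison as deposited. The median over the 36 genes was 0.30, -0.20 and -0.43 in transdifferentiated against beta, transdifferentiated against delta and beta against delta cells, and -0.13, -0.19 and -0.01 after scaling. The comparisons share their libraries and are not independent of each other.

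**Figure D1:**
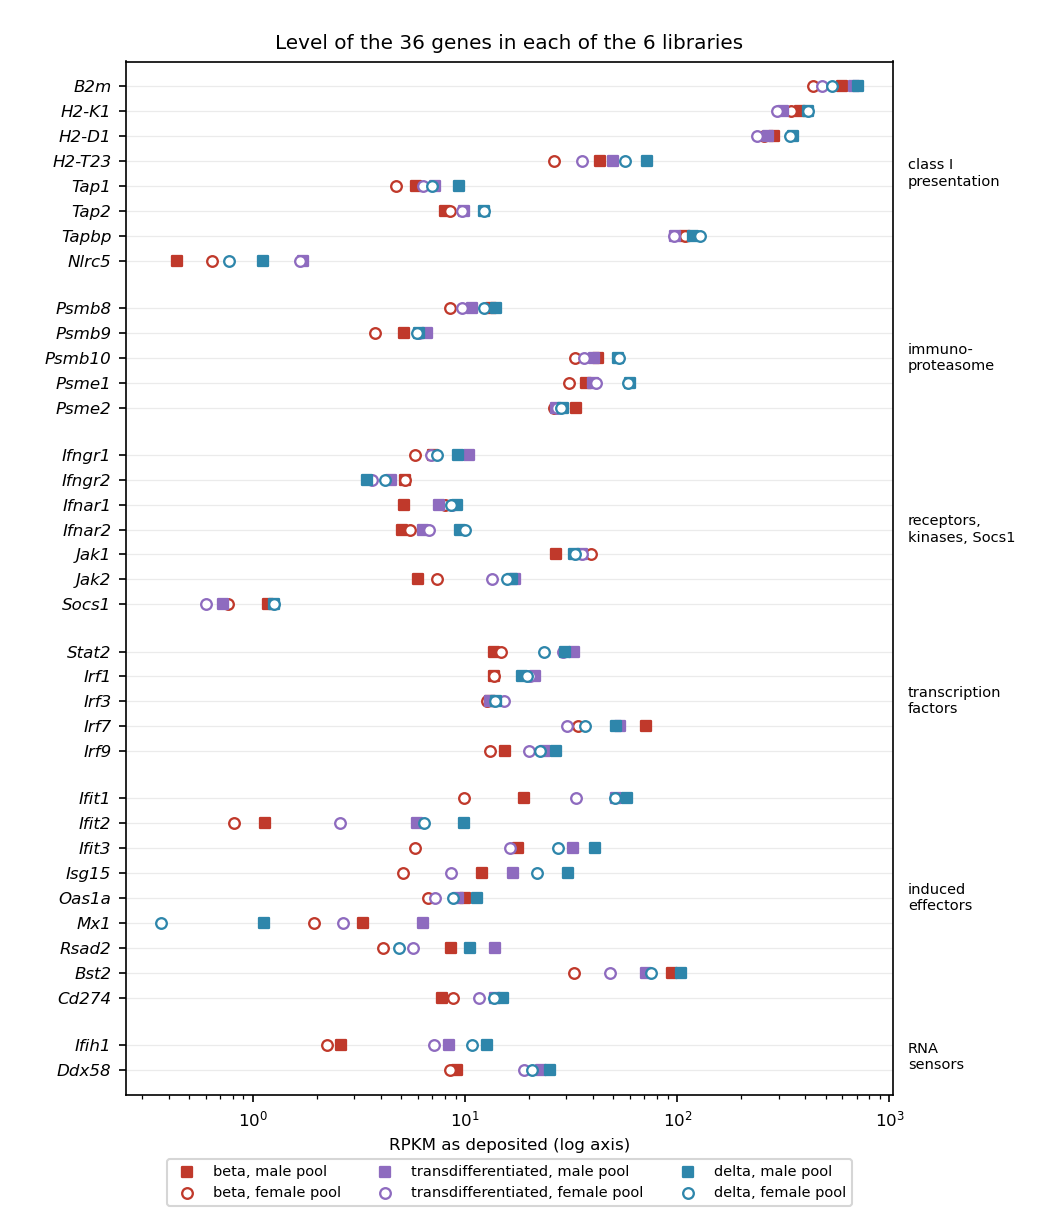
RPKM as deposited (x axis, log scale) of each of the 36 genes (y axis, grouped by role) in the 6 libraries, with colour for the population, squares for the male pool and open circles for the female pool. The class I genes B2m, H2-K1 and H2-D1 lie at 236 RPKM or more in every library, and both beta libraries lie below the other 4 for Jak2, Stat2, Ifit1, Ifit2, Ifih1 and Ddx58. They also do so for Tap1, Tap2, Nlrc5, Psmb9, Psme1, Ifnar2, Irf1, Irf9 and Cd274. As deposited, a typical gene was lower in beta cells too.

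The ligands of the pathway were close to undetected. Of 12 interferon genes listed, 0 reached the level needed for testing and 9 were listed at 0 in every library. The highest value was 0.185 RPKM, for Ifna2, a type I interferon.

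The receptors were present in every library at 3.43 to 10.4 RPKM. Ifnar2, a chain of the type I interferon receptor (chromosome 16, 91372783 to 91405589, GRCm38), was at 5.01 RPKM in the male and 5.49 in the female beta library, at 6.30 and 6.72 in transdifferentiated and at 9.49 and 9.94 in delta cells. The 3 groups did not overlap, and delta cells were highest. Beta cells were lower than delta cells by a log2 difference of -0.78 (SE 0.11, adjusted p = 0.0013), and transdifferentiated cells were lower by -0.51 (SE 0.11, adjusted p = 0.028). Both differences passed after scaling too, at -0.36 and -0.50. Ifnar1, its partner chain, was at 5.17 and 8.01 RPKM in beta, 7.56 and 8.68 in transdifferentiated and 9.10 and 8.60 in delta cells, and passed in no comparison.

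Of the interferon gamma receptor, Ifngr1, the ligand-binding chain, was at 7.08 and 5.82 RPKM in beta, 10.4 and 6.93 in transdifferentiated and 9.27 and 7.39 in delta cells. The transdifferentiated libraries overlapped both other groups, while beta lay below delta cells, and no comparison passed, although a block for the pool brought the comparison of transdifferentiated with beta cells past the threshold (adjusted p = 0.048). Ifngr2, the signalling chain, ran the other way, at 5.18 and 5.21 RPKM in beta, 4.46 and 3.66 in transdifferentiated and 3.43 and 4.20 in delta cells. As deposited no difference passed, and after scaling Ifngr2 was lower in transdifferentiated than in beta cells by -0.69 (adjusted p = 0.0064) and higher in beta than in delta cells by 0.76 (adjusted p = 0.0037).

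Among the kinases, Jak2 (chromosome 19, 29251828 to 29313080), which serves the interferon gamma receptor, separated beta cells from the rest. It was at 5.96 and 7.36 RPKM in beta, 17.1 and 13.4 in transdifferentiated and 16.7 and 15.8 in delta cells. The beta libraries lay below all the others, and transdifferentiated and delta cells overlapped. The difference was 1.08 (SE 0.15, adjusted p = 0.0019) in transdifferentiated against beta and -1.18 (SE 0.15, adjusted p = 9.2e-04) in beta against delta cells. Jak1, which serves both receptors, was at 26.8 to 39.2 RPKM over the 6 libraries and passed in no comparison as deposited. After scaling its difference between beta and delta cells went from -0.02 to 0.45 (adjusted p = 0.037). Socs1, an inhibitor of the kinases, was at 0.602 to 1.26 RPKM and passed in no comparison.

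Stat2 and Irf9 are partners in the complex that carries the type I interferon signal to the nucleus. Stat2 was at 13.6 and 14.7 RPKM in beta, 32.5 and 29.0 in transdifferentiated and 29.4 and 23.6 in delta cells. Both beta libraries were below the other 4. It was higher in transdifferentiated than in beta cells by 1.06 (SE 0.14, adjusted p = 0.0014) and lower in beta than in delta cells by -0.85 (SE 0.14, adjusted p = 0.0023). Irf9 was at 15.4 and 13.1 RPKM in beta, 23.7 and 20.0 in transdifferentiated and 26.9 and 22.6 in delta cells. Its differences of 0.58 (SE 0.15, adjusted p = 0.016) and -0.75 (SE 0.15, adjusted p = 0.0048) fell to 0.13 and -0.30 after scaling and no longer passed. The first also failed without the female beta library (adjusted p = 0.051) and without the male transdifferentiated library (adjusted p = 0.10).

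Irf1, a factor that drives class I genes after interferon gamma, was at 13.6 and 13.7 RPKM in beta, 21.4 and 20.1 in transdifferentiated and 18.5 and 19.6 in delta cells. The groups did not overlap and the libraries of each group lay close together. The differences were 0.57 (SE 0.10, adjusted p = 0.0045) in transdifferentiated against beta and -0.45 (SE 0.10, adjusted p = 0.0091) in beta against delta cells. After scaling they were 0.12 and 0.00 in size and did not pass, and the second was also lost without the male or the female delta library (adjusted p = 0.055 and 0.083). Irf3, which responds to the RNA sensors and is not itself strongly induced by interferon, was at 12.6 to 15.2 RPKM and passed in no comparison. Irf7, an interferon-induced factor, was at 30.3 to 71.0 RPKM and differed more between the pools than between the populations, as given below.

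**Figure D2:**
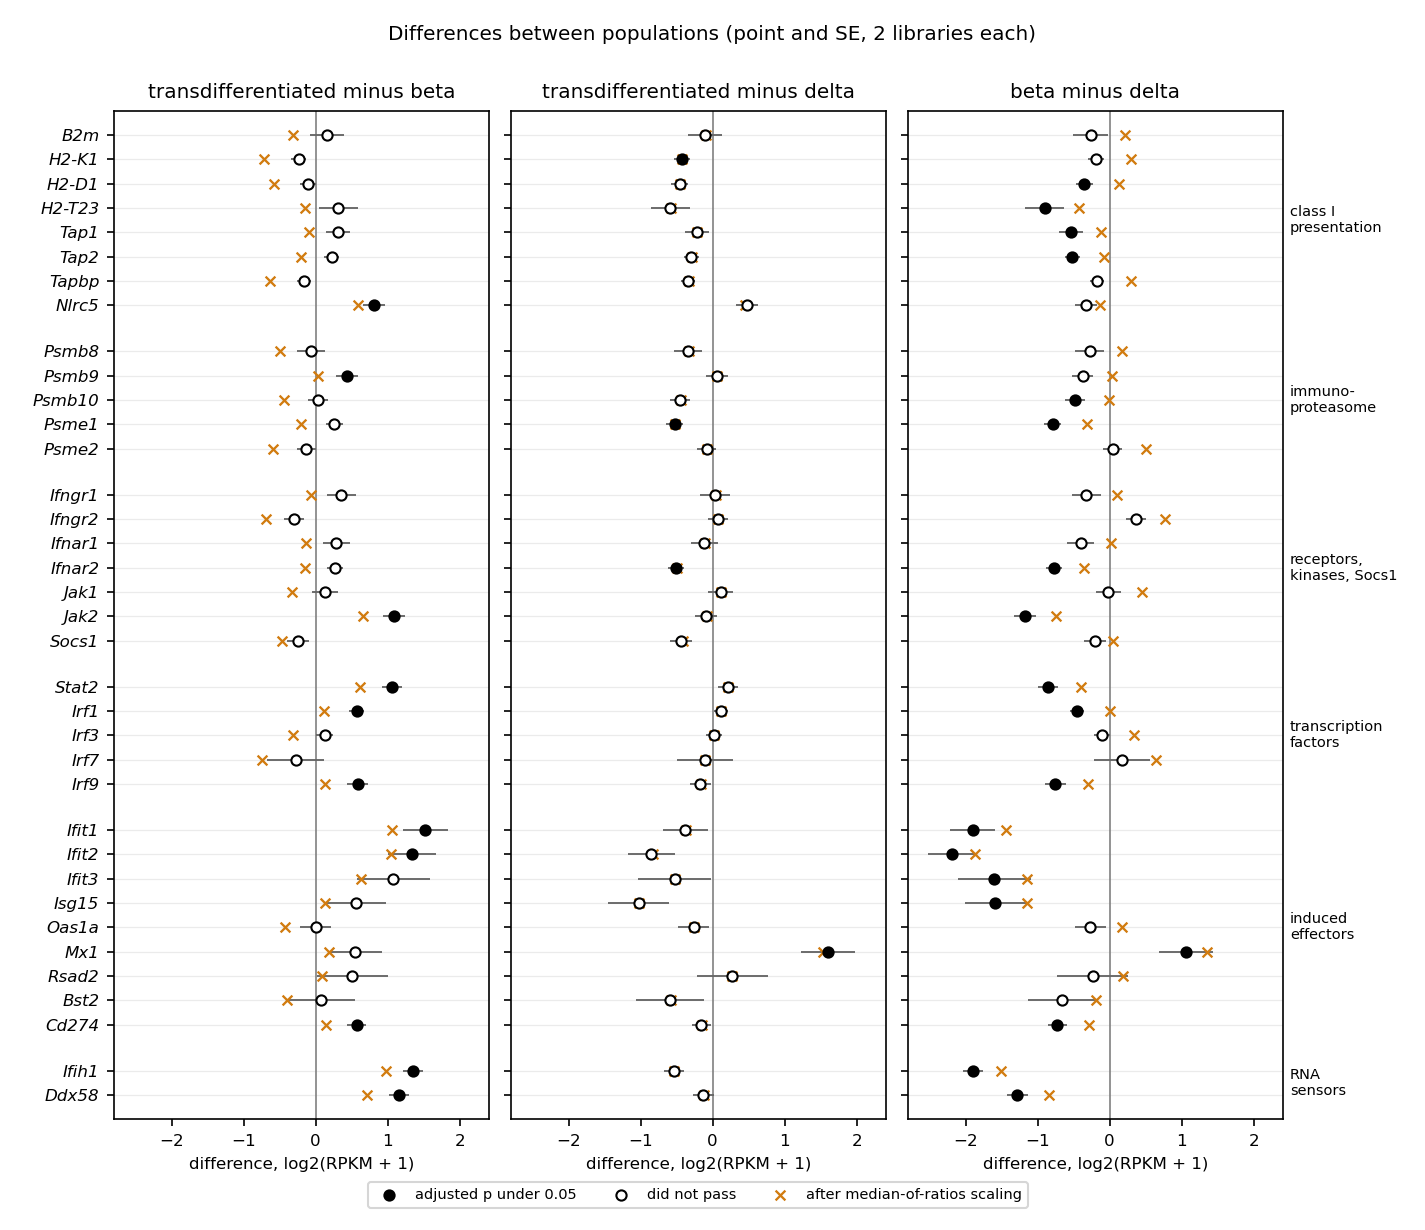
Difference in log2(RPKM + 1) between populations (x axes) for each of the 36 genes (y axis), with bars of 1 SE, filled points where the adjusted p is under 0.05 and crosses for the difference after median-of-ratios scaling. Scaling shifts the first and the third panel and leaves Jak2, Stat2, Ifit1, Ifit2, Ifih1 and Ddx58 on the same side of zero and past the threshold in both.

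Both cytosolic RNA sensors were lowest in beta cells. Ifih1 (MDA5, which senses long double-stranded RNA, chromosome 2, 62595798 to 62646255) was at 2.60 and 2.23 RPKM in beta, 8.39 and 7.09 in transdifferentiated and 12.7 and 10.8 in delta cells. The 3 groups did not overlap. It was higher in transdifferentiated than in beta cells by 1.36 (SE 0.14, adjusted p = 6.2e-04) and lower in beta than in delta cells by -1.90 (SE 0.14, adjusted p = 9.7e-05). Between transdifferentiated and delta cells it differed by -0.54 (adjusted p = 0.051, and 0.023 once the pool was blocked). Ddx58 (RIG-I, which senses short RNA with a triphosphate end, chromosome 4, 40203773 to 40239828) was at 9.12 and 8.43 RPKM in beta, 22.9 and 18.9 in transdifferentiated and 25.1 and 20.7 in delta cells. Its differences were 1.16 (SE 0.14, adjusted p = 0.0012) in transdifferentiated against beta and -1.28 (SE 0.14, adjusted p = 5.1e-04) in beta against delta cells.

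After scaling, Ifih1 differed by 0.98 and -1.51 and Ddx58 by 0.72 and -0.84 in the same comparisons, and both genes passed in every alternative run, leaving out each library included. The same held for Jak2 (0.66 and -0.74) and Stat2 (0.61 and -0.40) in both comparisons. Nlrc5 in transdifferentiated against beta cells passed in every alternative except the filter at 5 RPKM, which it did not reach. Calls in every alternative run also held for Ifnar2, Ifit1 and Ifit2 in beta against delta cells.

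The interferon-stimulated response element (ISRE), to which the Stat2 and Irf9 complex and other Irf factors bind, was searched in the promoters. The members were chosen as class I and interferon genes. A higher share of cores among them than over all genes follows from that choice and does not bear on the population differences. Its core, GAAA followed by any 2 bases and GAAA again, on either strand, occurred in 13 of the 33 members with a promoter window (250 bases before to 50 after the gene start, RefSeq sequence of GRCm38.p6), or 39.4%, against 3.99% of 27025 genes. The other motif, the gamma-activated site TTCNNNGAA, occurred in 7 of 33, or 21.2%, against 9.55% of genes. No window was listed for Tap2, Nlrc5 and Mx1. B2m, H2-T23, Psme1, Socs1, Oas1a and Bst2 also held an ISRE core and are not shown. A match is a run of letters and does not show that a factor binds. The stretches below are those of the sensors, of Stat2 and of some of the effectors described next. They run 5′ to 3′ on the strand of the gene, with the ISRE letters in capitals (TTTC, any 2 bases and TTTC where the core lies on the opposite strand).
Ifih1 (chr2:62646206-62646243, minus strand): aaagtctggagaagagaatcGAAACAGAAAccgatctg
Ddx58 (chr4:40239794-40239843, minus strand): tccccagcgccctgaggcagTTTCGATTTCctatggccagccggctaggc
Stat2 (chr10:128270256-128270305, plus strand): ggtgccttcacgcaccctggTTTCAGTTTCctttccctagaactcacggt
Ifit1 (chr19:34640765-34640833, plus strand): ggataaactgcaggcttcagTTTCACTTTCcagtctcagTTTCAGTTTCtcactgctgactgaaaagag
Ifit3 (chr19:34583353-34583436, plus strand): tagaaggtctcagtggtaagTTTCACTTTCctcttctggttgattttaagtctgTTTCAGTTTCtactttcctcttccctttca
Isg15 (chr4:156200855-156200916, minus strand): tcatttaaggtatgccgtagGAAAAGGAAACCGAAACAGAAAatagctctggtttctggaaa
Rsad2 (chr12:26456543-26456592, minus strand): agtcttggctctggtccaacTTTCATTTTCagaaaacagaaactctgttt

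Ifit1 and Ifit3 each held 2 separate cores, and Isg15 held 3 that overlap each other. The cores of Ifih1 and Ddx58 lie just after the annotated start, while those of the other genes shown lie before it. Jak2 and Ifit2, which were also lowest in beta cells, had no ISRE core in this window.

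The effectors spread over the widest range. Ifit1, which binds foreign RNA lacking a proper cap, was at 19.0 and 9.87 RPKM in beta, 51.3 and 33.2 in transdifferentiated and 57.9 and 50.6 in delta cells. Both beta libraries were lowest, and the difference was 1.52 (SE 0.31, adjusted p = 0.0076) in transdifferentiated against beta and -1.90 (SE 0.31, adjusted p = 0.0024) in beta against delta cells. The first rested in part on the male transdifferentiated library (adjusted p = 0.056 without it). Ifit2, a related RNA-binding protein, was at 1.13 and 0.809 RPKM in beta, 5.91 and 2.57 in transdifferentiated and 9.88 and 6.38 in delta cells. These values came from 96 and 65 reads in beta, 291 and 110 in transdifferentiated and 658 and 393 in delta cells. The groups did not overlap, and the differences were 1.34 (SE 0.33, adjusted p = 0.014) and -2.19 (SE 0.33, adjusted p = 0.0016). The first did not pass without the female beta (adjusted p = 0.068) or the male transdifferentiated library (adjusted p = 0.063). Transdifferentiated cells differed from delta cells by -0.85 (adjusted p = 0.16, and 0.025 with the pool blocked).

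Ifit3, their partner protein, was at 17.8 and 5.83 RPKM in beta, 32.1 and 16.3 in transdifferentiated and 40.8 and 27.3 in delta cells. The male beta library lay above the female transdifferentiated one, so these groups overlapped. Beta cells were lower than delta cells by -1.60 (SE 0.51, adjusted p = 0.032), a call lost without the female beta, the male delta or the female delta library (adjusted p = 0.14, 0.15 and 0.055) and after scaling (-1.15, adjusted p = 0.11). The difference of 1.08 from beta to transdifferentiated cells did not pass (adjusted p = 0.12), but did once the pool was blocked (adjusted p = 0.0050). Ifit3 has a near-identical neighbour, Ifit3b, and its share of their common reads is uncertain.

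Isg15, a ubiquitin-like modifier, was at 12.0 and 5.11 RPKM in beta, 16.9 and 8.62 in transdifferentiated and 30.5 and 21.8 in delta cells, from 71 to 391 reads. Both delta libraries were highest, and beta and transdifferentiated cells overlapped. Beta cells were lower than delta cells by -1.59 (SE 0.42, adjusted p = 0.016), a call lost without the female beta or the male delta library (adjusted p = 0.076 and 0.088) and after scaling (-1.14, adjusted p = 0.064). With the pool blocked, Isg15 in transdifferentiated cells was above beta cells by 0.56 (adjusted p = 0.026, and 0.30 without the block) and below delta cells by -1.03 (adjusted p = 0.0082, and 0.18 without the block). Cd274 (PD-L1, the ligand of the T-cell inhibitory receptor PD-1, chromosome 19, 29367455 to 29388095) was at 7.76 and 8.75 RPKM in beta, 13.9 and 11.7 in transdifferentiated and 15.0 and 13.6 in delta cells. The beta libraries were lowest, with differences of 0.57 (SE 0.13, adjusted p = 0.011) and -0.73 (SE 0.13, adjusted p = 0.0034), which fell to 0.14 and -0.29 after scaling and did not pass. Without the male transdifferentiated library the first did not pass either (adjusted p = 0.077).

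Mx1, a GTPase that blocks the replication of some viruses, ran against the other effectors. It was at 3.28 and 1.94 RPKM in beta, 6.32 and 2.67 in transdifferentiated and 1.13 and 0.367 in delta cells. Both delta libraries were lowest, and beta and transdifferentiated cells overlapped. Mx1 was higher in transdifferentiated than in delta cells by 1.60 (SE 0.37, adjusted p = 0.038) and higher in beta than in delta cells by 1.06 (SE 0.37, adjusted p = 0.047). The second call was lost without the male beta, the female beta or the female delta library (adjusted p = 0.22, 0.063 and 0.21). Against beta cells the transdifferentiated cells differed by 0.55 (adjusted p = 0.26, and 0.025 with the pool blocked). Oas1a, which makes the activator of an RNA-cutting enzyme and has close copies such as Oas1g, was at 6.67 to 11.4 RPKM. Rsad2 (viperin), which makes an antiviral nucleotide, was at 4.09 to 13.8 RPKM, and Bst2 (tetherin), which holds budding viruses at the membrane, at 32.5 to 104 RPKM. None of Oas1a, Rsad2 and Bst2 passed between populations, except that Rsad2 passed with the pool blocked, in transdifferentiated against beta cells (0.51, adjusted p = 0.012, and 0.41 without the block).

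Levels of the class I genes ran from 0.437 RPKM, for Nlrc5 in a beta library, to 708 RPKM, for B2m in a delta library. B2m, the invariant light chain (chromosome 2), was at 600 and 436 RPKM in beta, 682 and 480 in transdifferentiated and 708 and 535 in delta cells. The groups overlapped and no difference passed. The classical heavy chain H2-K1 (chromosome 17, 33996017 to 34000347) was at 378 and 345 RPKM in beta, 316 and 296 in transdifferentiated and 412 and 411 in delta cells. Transdifferentiated cells were lowest, and lower than delta cells by -0.43 (SE 0.11, adjusted p = 0.047, and 0.10 after scaling). The other classical chain, H2-D1 (chromosome 17, 35262730 to 35267499), was at 286 and 256 RPKM in beta, 267 and 236 in transdifferentiated and 352 and 339 in delta cells. Delta cells were highest, and beta cells were lower by -0.35 (SE 0.12, adjusted p = 0.038), but by scaled values the difference was 0.13 in the opposite direction (adjusted p = 0.47). As deposited, the call held only without the male beta library, with adjusted p between 0.055 and 0.19 on leaving out any other. The class I heavy chains are similar in sequence, so reads may be split between them.

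H2-T23, the non-classical chain that is read by natural killer cell receptors (chromosome 17, 36029773 to 36032855), was at 43.3 and 26.2 RPKM in beta, 49.8 and 35.6 in transdifferentiated and 71.9 and 56.6 in delta cells. Delta cells were highest, and beta cells were lower by -0.90 (SE 0.27, adjusted p = 0.025, and -0.43 with adjusted p = 0.24 after scaling). The call was lost without the female beta or the male delta library (adjusted p = 0.10 and 0.13). With the pool blocked, H2-D1 (-0.46, adjusted p = 0.030, and 0.0501 without the block) and H2-T23 (-0.59, adjusted p = 0.023, and 0.22 without the block) were also lower in transdifferentiated than in delta cells.

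Tap1 and Tap2 form the peptide transporter. Tap1 (chromosome 17, 34187553 to 34197225) was at 5.84 and 4.73 RPKM in beta, 7.24 and 6.32 in transdifferentiated and 9.31 and 6.96 in delta cells, and Tap2 was at 7.996 and 8.49, 9.90 and 9.68, and 12.2 and 12.2 RPKM. Beta cells were lower than delta cells by -0.53 for Tap1 (SE 0.17, adjusted p = 0.030) and by -0.52 for Tap2 (SE 0.10, adjusted p = 0.0052), and neither passed after scaling (-0.12 and -0.08). The Tap1 call was lost on leaving out any library but the male beta and the female delta one (adjusted p = 0.052 to 0.20). Tapbp (tapasin), which holds the transporter to the class I chain, was at 96.8 to 128 RPKM and passed in no comparison as deposited. After scaling, H2-K1, H2-D1, Tapbp, Psme2 and Ifngr2 were the 5 members lower in transdifferentiated than in beta cells.

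Nlrc5, the transcriptional activator of class I genes, was the class I member higher in transdifferentiated than in beta cells. It was at 0.437 and 0.639 RPKM in beta, 1.72 and 1.66 in transdifferentiated and 1.11 and 0.767 in delta cells. The transdifferentiated libraries were highest and the beta libraries lowest, all at low levels. The difference from beta cells was 0.81 (SE 0.15, adjusted p = 0.0052, and 0.59 with adjusted p = 0.013 after scaling). The difference from delta cells was 0.48 and did not pass (adjusted p = 0.098).

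The immunoproteasome replaces the catalytic subunits of the constitutive proteasome with Psmb8, Psmb9 and Psmb10. Psmb8 was at 13.3 and 8.52 RPKM in beta, 10.7 and 9.62 in transdifferentiated and 14.0 and 12.3 in delta cells, with no difference that passed. Psmb9 was at 5.14 and 3.74, 6.59 and 6.04, and 6.07 and 5.93 RPKM, and was higher in transdifferentiated than in beta cells by 0.44 (SE 0.15, adjusted p = 0.045, and 0.04 in size after scaling). This call was lost on leaving out any of 5 of the 6 libraries. Between beta and delta cells Psmb9 differed by -0.37 (adjusted p = 0.067, and 0.047 with the pool blocked). Psmb9 (34181987 to 34187764) and Tap1 overlap by 212 exon bases on opposite strands of chromosome 17, and no source used here says whether reads were counted by strand, so reads there cannot be assigned. Noncoding genes on the opposite strand share 24.9% of the exon bases of Tapbp, 14.7% of Psmb8, 14.1% of Tap2 and 14.1% of Cd274. Ifnar2 shares 9.5% with Gm21970, a protein-coding gene on the same strand. Psmb10 was at 42.4 and 33.1 RPKM in beta, 40.6 and 36.1 in transdifferentiated and 52.5 and 53.0 in delta cells, with beta below delta cells by -0.48 (SE 0.14, adjusted p = 0.025, and -0.01 after scaling). That call was lost without the female beta (adjusted p = 0.052) or either delta library (adjusted p = 0.11).

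Psme1 and Psme2 form the cap that opens the proteasome. Psme1 was at 37.2 and 30.9 RPKM in beta, 40.2 and 41.4 in transdifferentiated and 59.8 and 58.8 in delta cells. The groups did not overlap, and delta cells stood above both others. Beta cells were lower than delta cells by -0.79 (SE 0.12, adjusted p = 0.0018) and transdifferentiated cells by -0.53 (SE 0.12, adjusted p = 0.034). After scaling the first was -0.32 (adjusted p = 0.11), and the second was -0.52 and did not pass (adjusted p = 0.070). Psme2 was at 26.2 to 33.2 RPKM and passed in no comparison as deposited.

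A ratio of 2 genes within a library does not move with the scaling of that library. Each inducible catalytic subunit was therefore set against its constitutive counterpart, and Psme1 and Psme2 against Psme3. The ratio of Psmb8 to Psmb5 was 0.290 and 0.179 in the male and female beta libraries, 0.449 and 0.332 in transdifferentiated and 0.492 and 0.424 in delta cells. The ratio of Psmb9 to Psmb6 was 0.0725 and 0.0543 in beta, 0.148 and 0.119 in transdifferentiated and 0.126 and 0.113 in delta cells. In both, the beta libraries were lowest, and transdifferentiated and delta cells overlapped.

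The ratio of Psmb10 to Psmb7 was 2.14 and 1.59 in beta, 2.25 and 1.99 in transdifferentiated and 2.998 and 3.07 in delta cells. That of Psme1 to Psme3, the cap of another proteasome form, was 1.07 and 0.765 in beta, 1.37 and 1.40 in transdifferentiated and 2.30 and 2.31 in delta cells. That of Psme2 to Psme3 was 0.960 and 0.650, 0.914 and 0.910, and 1.11 and 1.11. Delta cells were highest in these 3 ratios. With 2 libraries a group an exact test cannot pass the threshold, so the ratios are a description. Both terms of a ratio can move it: Psmb5 was higher in beta than in delta cells by 0.68, Psmb6 by 0.47 and Psme3 by 0.52.

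**Figure D3:**
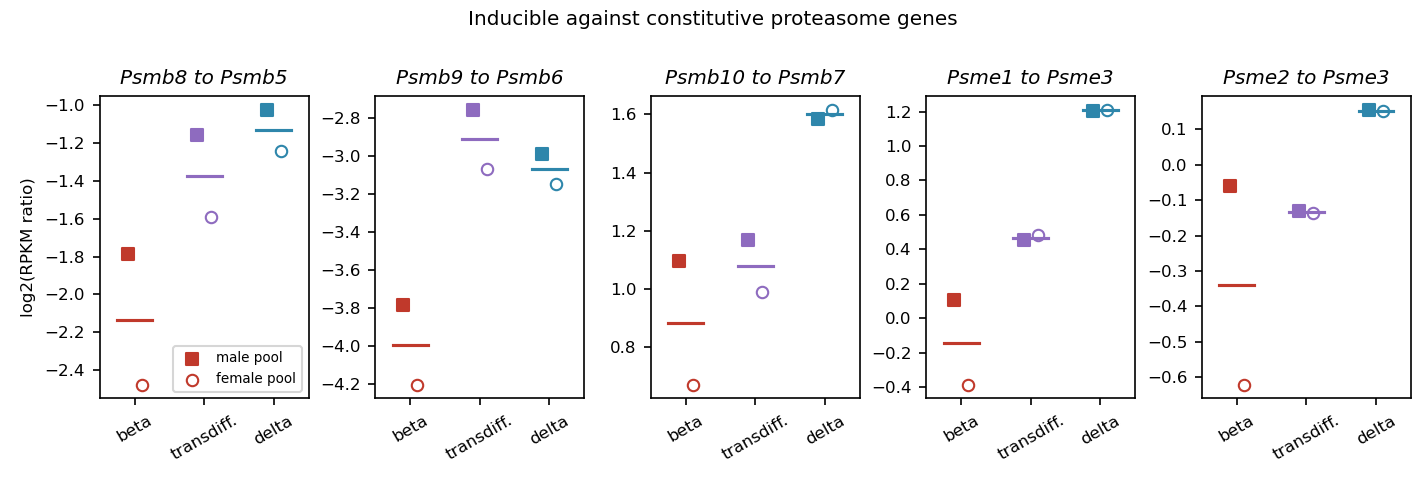
log2 of the RPKM ratio of Psmb8, Psmb9 and Psmb10 to their constitutive counterparts, and of Psme1 and Psme2 to Psme3 (y axes, a separate scale in each panel), in each library of the 3 populations. Squares mark the male pool, open circles the female pool and a line the mean. Both beta libraries lie below the other 4 in the first and second panel, and both delta libraries lie above the other 4 in the last 3.

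The male and female pools were compared after the data had been seen, with a term for the pool beside the population in limma. The 36 genes leaned towards the male pool: the male library was higher in all 3 populations for 21 of them and the female library for 1, Ifnar2. Over all tested genes the male library was higher throughout for 13.4% and the female library for 18.6%. After scaling the male library was higher in all 3 populations for 18 members, against 13.8% of all genes, with 20.4% of all genes higher in the female library throughout. Of the effectors, 8 of 9 were higher in the male library of every population, with Cd274 as the exception. Both sensors, 5 of 8 class I genes, 2 of 5 immunoproteasome genes, 2 of 7 receptor and kinase genes and 2 of 5 transcription factors did the same. As 1 pool was made of each sex, sex and pool cannot be told apart.

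Of single genes, only Rsad2 passed, where 0.315% of all tested genes were called higher and 0.0461% lower in the male pool (0.361% together, and 0.307% after scaling, 0.269% higher and 0.0384% lower). It was at 8.61 against 4.09 RPKM in beta, 13.8 against 5.68 in transdifferentiated and 10.5 against 4.89 in delta cells, male against female. The male library was higher by a like amount in each population, with a log2 difference of 1.01 (SE 0.10, adjusted p = 0.011). On leaving out each library the difference ran from 0.94 to 1.06. The call was absent when genes of low level were tested too, where 0 of all 26144 genes were called.

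The next in size did not pass: Ifit3 (0.99, adjusted p = 0.11), Bst2 (0.84, adjusted p = 0.26), Isg15 (0.82, adjusted p = 0.091), Irf7 (0.77, adjusted p = 0.086) and Mx1 (0.73, adjusted p = 0.12). Bst2 was at 94.7 against 32.5 RPKM in beta, 71.0 against 48.3 in transdifferentiated and 104 against 75.5 in delta cells. Irf7 was at 71.0 against 33.9, 53.7 against 30.3, and 51.3 against 36.9 RPKM. For both the gap was widest in beta cells. Leaving out the male or the female delta library removes delta cells from the pool comparison. In these runs 9 members were called, all higher in the male pool, against 1.89% and 1.93% of all genes. Such a fit has few libraries left to estimate each gene's own spread. The count of 9 therefore cannot be set against that of the full fit, and the part of delta cells in it was not tested.

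RNA of other pancreatic cells also differed between the pools. The summed level of 7 acinar markers, genes of the digestive enzyme cells, was 7868 against 299.7 RPKM in beta, 2166 against 140.8 in transdifferentiated and 708 against 519 in delta cells, male against female. The summed leukocyte markers were 229 against 246 RPKM in beta, 51.1 against 61.9 in transdifferentiated and 79.4 against 93.8 in delta cells, so these sums were higher in the female pool. In delta cells this rested on C1qa, at 59.3 against 76.9 RPKM, while Cd68 ran the other way, at 14.1 against 10.9. The part of either in the pool differences was not tested.

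**Figure D4:**
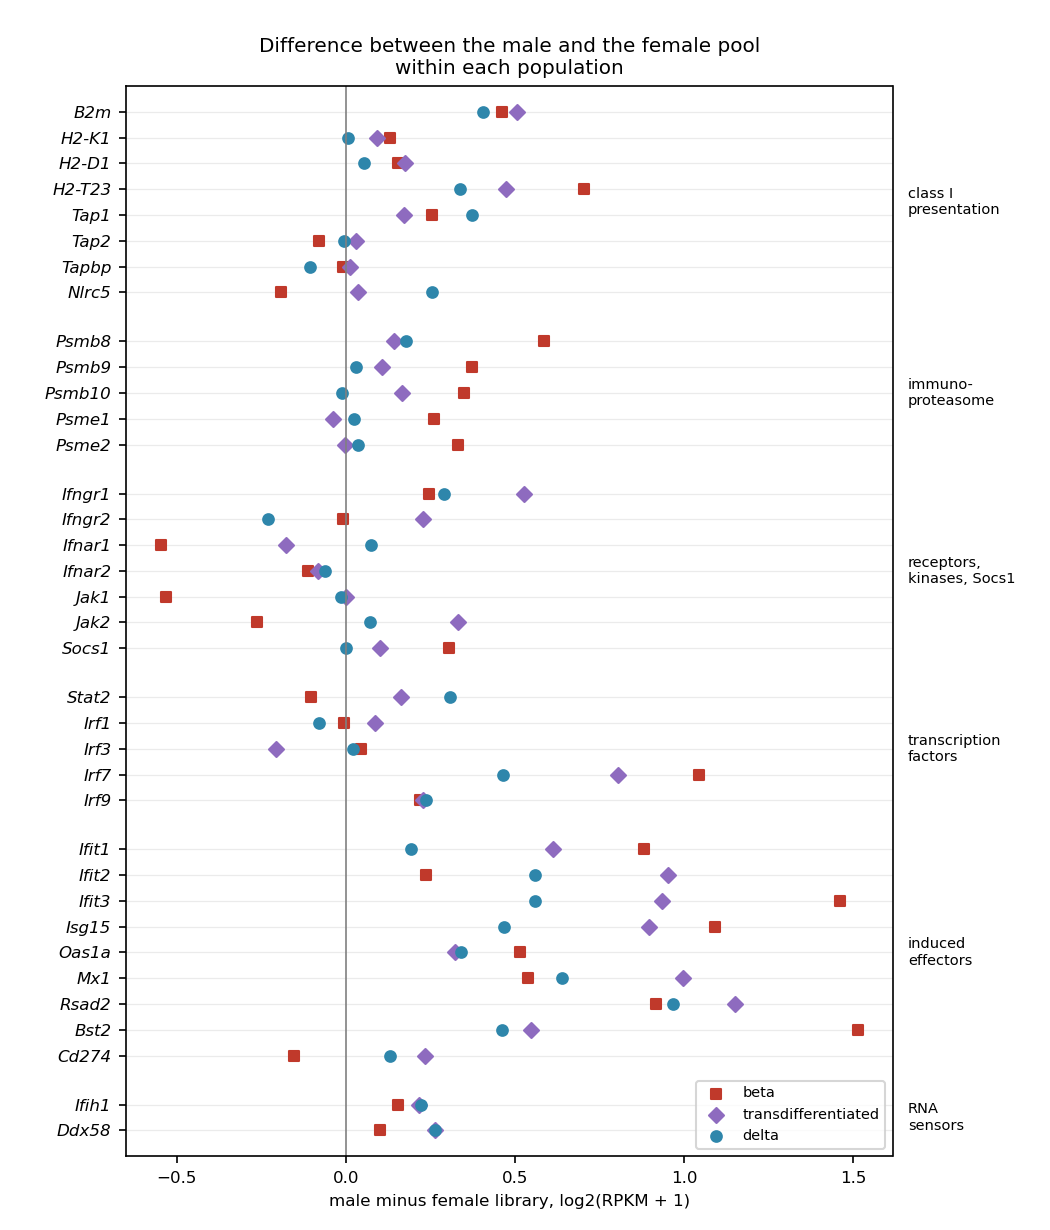
Male minus female library of the same population in log2(RPKM + 1) (x axis) for each of the 36 genes (y axis), with a symbol for each of the 3 populations. For 8 of the 9 induced effectors all 3 symbols lie to the right of zero, and for Ifnar2 all 3 lie to the left.

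Leukocytes express class I genes and interferon targets at high levels, so their markers were read for the population comparisons as well. Of 19 leukocyte markers listed, 18 were in the table. Their sum was highest in beta cells, at 229 and 246 RPKM. The part of leukocytes in the differences between populations, and in the class I levels, was not tested. The T-cell markers Cd3e and Cd3d were listed at 0 in every library, and Ptprc, carried by all leukocytes, was at 0.16 RPKM or less. Tyrobp, Adgre1 and Lyz2 were also at 0 in both delta libraries. C1qa, a complement gene of macrophages, was highest there, at 59.3 and 76.9 RPKM against 34.9 and 40.5 in beta and 29.4 and 32.6 in transdifferentiated cells, and made up most of the delta sum. C1qb was at 0.0542 and 0.0586 RPKM in delta and 9.76 and 12.3 in beta cells, and C1qc at 0 and 0.0661, and 2.81 and 3.87. Cd74, the invariant chain of class II, was at 72.5 and 73.9 RPKM in beta cells and at 2.38 to 6.83 in the others. Summed endothelial markers were at 4.05 to 8.40 RPKM and mesenchymal markers at 0.332 RPKM or less.

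Genes of the same pathways outside the 36 were read from lists chosen by function, also with earlier results of these data known. Of 34 other interferon targets tested, 20 were higher and 2 lower in transdifferentiated than in beta cells, and 10 and 5 after scaling. Of all tested genes, 42.5% were higher and 8.46% lower there, and 25.5% and 29.6% after scaling. The 3 of largest size were Gbp7, an interferon-induced GTPase (1.998), Oas2, an antiviral synthetase (1.89), and Ifitm3, a membrane protein that blocks viral entry (-1.49). In beta against delta cells 2 were higher and 21 lower (6 and 9 after scaling), led by Rtp4 (-2.30), Gbp7 (-1.997) and Gbp3 (-1.72). The shares of all genes there were 11.7% and 46.3% (29.8% and 28.1% after scaling). In transdifferentiated against delta cells 2 were higher and 1 lower, namely Cxcl10, a chemokine that attracts T cells (0.60), Tor3a (0.47) and Lgals3bp (-0.59). Of all genes, 5.53% were higher and 7.20% lower there. With the pool as a block the counts there were 6 and 3, and in beta against delta cells 5 and 25. With that block, 14.8% and 60.6% of all genes were called in either direction in these comparisons.

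Gbp7 was at 1.41 and 1.33 RPKM in beta, 9.38 and 7.65 in transdifferentiated and 9.62 and 7.44 in delta cells. Rtp4 was at 23.9 and 15.2, 65.5 and 46.1, and 106 and 90.1 RPKM. For both, the beta libraries lay below the other 4, as they did for the 2 RNA sensors.

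Of 14 other class I and peptide loading genes tested, 7 were higher and 0 lower in transdifferentiated than in beta cells, and 3 and 2 after scaling. Over all genes the shares were 42.5% and 8.46%, and 25.5% and 29.6% after scaling. The 3 of largest size were Rfx5, a factor that binds class I and class II promoters (1.04), Erap1, which trims peptides to length (0.94), and H2-T24 (0.92). In beta against delta cells 0 were higher and 8 lower (1 and 7 after scaling), led by Rfx5 (-1.16), Erap1 (-1.11) and the chaperone Canx (-1.02). Over all genes the shares there were 11.7% and 46.3% (29.8% and 28.1% after scaling). In transdifferentiated against delta cells 0 were higher and 3 lower, namely Pdia3, which aids the folding of class I (-0.58), Rfxap (-0.54) and H2-M3 (-0.53). Of all genes, 5.53% were higher and 7.20% lower in that comparison.

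Of 11 other interferon signalling genes tested, 5 were higher and 0 lower in transdifferentiated than in beta cells, with Tlr3, an endosomal RNA sensor, at 1.39, the kinase Tbk1 at 0.81 and Ifnlr1, a chain of the interferon lambda receptor, at 0.74. After scaling 3 were higher and 1 lower. Of all genes, 42.5% were higher and 8.46% lower there, and 25.5% and 29.6% after scaling. In beta against delta cells 0 were higher and 6 lower, among them Ifnlr1 (-1.46), Tlr3 (-1.38) and Irf2 (-0.72), and after scaling 1 was higher and 2 lower, with Irf2 no longer called (-0.28, adjusted p = 0.089). Over all genes the shares in that comparison were 11.7% and 46.3%, and 29.8% and 28.1% after scaling. Ifnlr1 was also the gene lower in transdifferentiated than in delta cells (-0.73), where 7.20% of all genes were lower. Tlr3 was at 2.34 and 2.35 RPKM in beta, 8.22 and 7.37 in transdifferentiated and 8.10 and 7.37 in delta cells. Of the 5 constitutive proteasome genes, 1 was higher (Psme4, 0.77) and 3 were lower (Psmb5, -0.80, Psmb6, -0.55, and Psme3, -0.33) in transdifferentiated than in beta cells. After scaling 0 were higher, so the Psme4 call was lost, and 4 were lower. None of the genes on these lists passed between the pools.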

How the data were processed

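Per the labels' protocols, islets were dissociated with trypsin after overnight culture, cells were sorted into Trizol and libraries were made with the TruSeq RNA kit. The deposited values are RPKM, made by the authors from their reads. The submitters' processing notes name STAR 2.5, featureCounts, edgeR 3.14.0 and GRCm38.p4, without their settings, and use of strand and any correction of library size are not given in the sources used here. The series title and labels, which derive the double-positive cells from delta cells, were followed over a passage of the series text that says alpha.

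From these RPKM values, 27 symbols turned into dates were left out, and 13022 genes that reached 1 RPKM in at least 2 of 6 libraries were tested. Values were taken as log2(RPKM + 1), which understates the change of low genes, and all 3 populations were fitted in 1 model by limma-trend (limma 3.58.1 under R 4.3.3, two-sided, Benjamini-Hochberg over all genes tested, adjusted p under 0.05). The calls were tested on simulated data, with normal noise of the fitted spread and no scale shift or shared pool effect. That test cannot show how the calls stand up to either. With 2 libraries a group and no separate cultures named, p-values measure the spread between these libraries. The edgeR test planned for counts was not run, because the table holds RPKM. Alternatives were the pool as a block, median-of-ratios scaling, a pseudocount of 0.1, no low filter, a filter at 5 RPKM and leaving out each library.

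Depth was worked out from the low values: with exon lengths from GENCODE M21, 83.3% to 86.4% of values under 50 reads came out whole within 0.01 read. A read on a gene of 1 kilobase gives 0.0464 to 0.0917 RPKM. For 21 of the 36 genes the values of all 6 libraries came out whole within 0.1 read. Counting error is not the only error, and read numbers cover it alone. Libraries are paired by pool, since the series text gives all populations the same islets. Libraries of the same pool deviated together from their group means (r = 0.47 for beta with transdifferentiated, 0.36 for transdifferentiated with delta, 0.24 for beta with delta, across genes).

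The 36 genes and the other lists were chosen with earlier results of these data known. A member is given in full where it passed in at least 1 comparison or defines its role, and the other members by their range. Of each other list the called genes with the 3 largest differences are named. The endothelial, mesenchymal, acinar and leukocyte lists are markers of other cells. Positions are from GENCODE M21 and promoter sequences from RefSeq, both on GRCm38.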

Additional observations from a re-analysis of the deposited data

How the results depend on the processing

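Member counts depended on scaling, on the block for the pool and on single libraries. With that block, 16 members were higher in transdifferentiated than in beta cells and 19 were lower in beta than in delta cells. Of 13022 genes tested with that block, 5748 were higher in the first comparison and 6241 lower in the second. In transdifferentiated against beta cells, the members higher were 7 and those lower 5 after median-of-ratios scaling, and 6 to 13 and 0 to 2 on leaving out each library. In transdifferentiated against delta cells, the members higher were 0 with no low filter and 0 with a filter at 5 RPKM (Mx1 reaches 5 RPKM in only 1 library). Of all genes, 4.41% and 12.2% were called in either direction in these runs. The members lower in that comparison were 8 with the replicate block (the pool), 1 after scaling and 0 with no low filter. In beta against delta cells, the members higher were 4 after scaling, 0 with no low filter, 0 at 5 RPKM and 0 to 1 on leaving out each library, and those lower were 7 after scaling and 11 to 21. Between pools, the members higher were 0 with no low filter, 3 at 5 RPKM and 1 to 9 on leaving out each library. Under scaling, H2-D1 and Jak1 in beta against delta cells reversed, to 0.13 and 0.45. The cause of these changes was not tested. The replicate block added 11 calls between populations and removed 0, changing no other, and scaling removed 16, added 7 and reversed 2. A pseudocount of 0.1 removed 1 call, and testing with no low filter removed 14, over the population and pool comparisons together. With 2 libraries a group, leaving 1 out assumes that the lone library varies like those of the other groups. Nlrc5, Socs1, Mx1 and Ifit2 are near 1 RPKM in some libraries, where log2(RPKM + 1) understates their change. Ifit2 had 65 reads or more in every library. Values of Nlrc5, Socs1 and Mx1 did not come out as whole reads in all libraries, and depth may limit these genes.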
